A study of Oryza sativa with 36 samples.

Results

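Needle puncturing of the resistant rice variety RH was examined at 6 h after wounding, in 3 arrays of punctured seedlings (R6N) set against 3 arrays of seedlings under natural growth (R6C), 6 of the 36 arrays of the series, chosen by their sample labels. RH is 'Rathu Heenati', an *indica* cultivar from Sri Lanka that resists the brown planthopper (BPH), and both groups held 2-week-old seedlings raised in pots under natural conditions. Punctured plants received 15 needle pricks each at the base of the seedling, and control plants were left untouched. A replicate was the pooled shoots of the 10 seedlings of 1 pot, so leaves far from the wound were sampled together with the wounded base, and fewer cells of a type and less RNA per cell cannot be told apart. The series also holds the BPH-susceptible variety 'Taichung Native 1' (TN1), shoots collected at 24 h, and pots infested with about 100 BPH nymphs. From these, punctured and untreated TN1 at 6 h (T6N and T6C), punctured and untreated RH at 24 h (R24N and R24C) and infested RH at 6 h (R6P) are used here, each with 3 arrays.

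Wounded plant tissue makes jasmonate, which leads to the destruction of the JAZ repressor proteins and so frees transcription of defence genes, the *JAZ* genes themselves among them. Typical products of the wound response are proteinase inhibitors, which block the digestive enzymes of chewing insects, peroxidases and phenylpropanoid enzymes that build lignin at the injury, chitinases, and volatile terpenes. In rice seedlings such responses are also known from planthopper and caterpillar feeding.

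Each array, an Affymetrix Rice Genome Array, gave 1 intensity for each of 57194 probe sets, a probe set being the group of oligonucleotides that reports 1 transcript. Fold changes were taken on the log2 scale, and a probe set counted as differential when the adjusted p of limma (Benjamini-Hochberg over all probe sets) was under 0.05 and the fold change was at least 2. Median intensities of the 6 arrays did not exceed 37.6, with 35.8 to 39.8 over the whole series, and did not separate the groups (exact permutation test, two-sided p = 0.6, where 0.1 is the smallest p that 3 against 3 arrays can give). Detection calls were not used here, so signals below about 40 may be background, and a rise from such a signal may be a lower bound. Green shoot markers were present, with mean intensities of 18312 in R6C and 18509 in R6N for *OsrbcS* and 13812 and 14164 for *LHCP*, although the shoot marker *RBCS1* was near background (10.6 and 10.0). The root markers *Lsi1*, *Lsi2*, *IRT1* and *OsPht1;11* summed to 216 in R6C and 229 in R6N. Most of this was *Lsi1*, with 143 and 159, and *IRT1* read 50.4 and 45.9. The others were near background, with 11.3 and 13.1 for *Lsi2* and 11.2 and 10.5 for *OsPht1;11*. None of the 5 shoot, 4 root and 5 meristem or cell division markers was differential, and their log2 fold changes lay between -0.13 and 0.70.

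Few probe sets were differential after puncturing. R6N/R6C held 101 differential probe sets, 0.177% of those tested, of which 89 were higher (0.156%) and 12 lower (0.021%) in R6N. The 3 punctured arrays lay beyond the 3 untreated ones in every one of the 101, a separation that 6.22% of all probe sets showed upward and 8.26% downward. The rises ran from 2.02- to 30.6-fold, with 4 above 8-fold, 16 between 4- and 8-fold and 69 below 4-fold, whereas no fall exceeded 3.08-fold. Over all probe sets the median log2 fold change was -0.00388, and 98.8% lay within 0.5 of 0. Of the 18 further probe sets that read genes on this list, none was differential and 8 lay within 0.2 of 0. Some passed the adjusted p and missed only the 2-fold minimum. Examples are a probe set of LOC4344033 (log2 fold change 0.98, adjusted p = 0.0056 by limma) and that of LOC4350386 (0.96, adjusted p = 0.0175). A value given below is therefore that of its probe set.

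**Figure D1:**
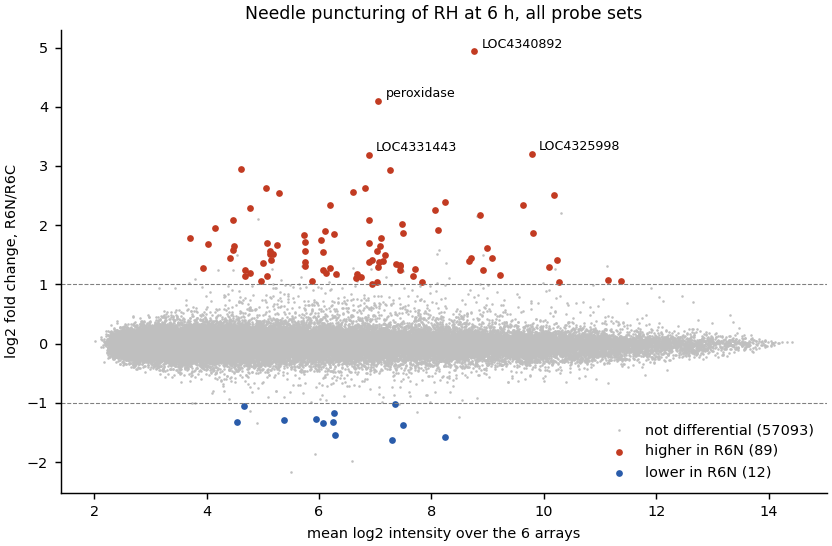
Log2 fold change in R6N/R6C (vertical axis) against the mean log2 intensity of the 6 arrays (horizontal axis) for all probe sets, with dashed lines at a 2-fold change. The 89 rises (red) reach a log2 fold change of 4.94 and start from R6C means of 7.05 to 1853, while the 12 falls (blue) stop at -1.62.

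The annotation tied 72 of the 101 differential probe sets to 1 gene each, 71 genes in all, and 29 to none. Only 16 of them, all rises, carried a gene name beyond a locus number. Genes known by a locus number alone are called here by that number, and their functions are those that the study's own table of functional terms attaches to the probe set. Apart from the 5 largest rises and those named for an interaction, such genes were picked for their function or after their values were seen. That table lists probe sets because they were differential in some comparison of these same arrays, so counts within its terms are not independent evidence of a direction. That choice also favours a higher share of rises within each term than among all probe sets. Such shares have unlike bases and do not measure enrichment.

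Proteinase inhibitors held the largest rise of all. The transcript of LOC4340892, a serine-type endopeptidase inhibitor, measured 59.8, 116 and 69.1 in the R6C arrays and 3114, 2334 and 1900 in the R6N arrays. This 30.6-fold rise (log2 fold change 4.94 ± 0.57, SE, adjusted p = 4.74e-06 by limma) left a wide gap between the groups. Another probe set of the same locus was bright in both groups, with means of 11864 and 11654, and did not rise (log2 fold change -0.03), so the locus as a whole is not described by either probe set alone. LOC4325998, of the same function, measured 224, 348 and 310 in R6C and 3553, 2483 and 2172 in R6N, a 9.25-fold rise (log2 fold change 3.21 ± 0.49, adjusted p = 0.000399 by limma). *RBBI3.3*, which encodes a Bowman-Birk inhibitor of trypsin, read 101, 179 and 129 without and 1225, 552 and 496 with puncturing, a 5.25-fold rise (log2 fold change 2.39 ± 0.37, adjusted p = 0.000404 by limma). R6N replicate 1 was far above the other punctured arrays for this gene, and the call was kept without it.

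Of the 15 probe sets listed under serine-type endopeptidase inhibitor activity, 6 rose in RH, beside 0.156% of all probe sets, and 0 fell. The median over the 15 was 0.73 on the log2 scale, beside -0.00388 over all probe sets. The 15 were listed for being differential somewhere in these arrays, so neither comparison has like bases. The others that rose were Os.32459.2.S1_x_at (2.26), which belongs to the same design cluster as LOC4325998, LOC4352127 (2.02) and Os.38812.1.S1_at (1.90). The call of Os.38812.1.S1_at was lost without R6C replicate 1 or R6N replicate 1 (adjusted p = 0.0572 and 0.0785 by limma). The remaining 9 did not pass, among them Os.22594.1.S1_at with a log2 fold change of 1.36 and an adjusted p of 0.138 by limma. In the list of 10 inhibitor genes matched by name, which also covers the cystatins, *RBBI3.3* alone rose and the median was 0.11.

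Inhibitors were also where RH and TN1 parted most. The gene *pinA*, listed under the same term, had an R6C mean of 99.9 and an R6N mean of 125 (log2 fold change 0.32), while T6C and T6N had means of 246 and 3625 (log2 fold change 3.81). The difference between the responses was -3.49 ± 0.42 on the log2 scale and passed the interaction test (adjusted p = 6.45e-05 by limma), also without any 1 of the 12 arrays behind it. Os.48206.1.S1_at and Os.9169.1.S1_x_at, both serine-type endopeptidase inhibitors as well, showed the same split. Their log2 fold changes were -0.04 and 0.32 in RH against 3.33 and 2.17 in TN1, with interaction adjusted p of 0.0122 and 1.22e-05 by limma. That of Os.48206.1.S1_at was lost without R6C replicate 2 or 3, T6C replicate 2 or 3 or T6N replicate 1 (adjusted p from 0.0505 to 0.073). Without puncturing both read below 40 in both varieties, so the TN1 rises may be lower bounds. With puncturing they still read below 40 in RH, with R6N means of 9.58 and 18.5. Whether these probe sets read a transcript in RH at all was not tested. *RBBI3.3* rose in both varieties, by 2.39 in RH and 4.02 in TN1, and the difference did not pass the interaction test (adjusted p = 0.95 by limma).

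Peroxidases followed. The gene annotated simply as *peroxidase* (LOC4344277), a secreted haem enzyme of the family that oxidises cell wall phenolics, measured 25.7, 41.5 and 30.8 in R6C and 621, 557 and 480 in R6N. That is a 17.2-fold rise (log2 fold change 4.10 ± 0.34, adjusted p = 9.58e-09 by limma), with close agreement among the punctured arrays. Because the untreated signals were near the array medians, the fold may be a lower bound. LOC4337232 rose 4.87-fold (12.1 to 12.6 in R6C, 55.4 to 68.4 in R6N), LOC4344496 3.24-fold (57.0 to 74.2 against 172 to 311) and LOC4351300 3.06-fold (228 to 374 against 847 to 952), and the groups did not overlap in any of them. These 4 were the rises among 23 probe sets listed under peroxidase activity, beside 0.156% of all probe sets, and 0 fell. The median of the 23 was 0.09. LOC4337488 had a log2 fold change of 1.51 but an adjusted p of 0.365 by limma.

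A gene for an unnamed oxidoreductase, LOC4331443, had the lowest adjusted p of the 5 largest rises. Its R6C arrays gave 36.9, 45.8 and 35.7 and its R6N arrays 453, 382 and 264, a 9.11-fold rise (log2 fold change 3.19 ± 0.19, adjusted p = 6.19e-12 by limma). A second probe set of LOC4331443 had means of 43.5 in R6C and 51.3 in R6N and did not rise (log2 fold change 0.26). Neither probe set alone describes that locus. LOC9267997, the fifth, rose from 6.86, 11.3 and 8.55 to 70.6, 84.3 and 52.0, a 7.76-fold rise from signals well below the array medians. Another probe set of LOC9267997 rose as well (log2 fold change 2.56), but not a pair of others (1.03 and 0.49, adjusted p = 0.0597 and 0.334 by limma). Its neighbour in the RefSeq gene table, LOC4334918, was also differential, at a log2 fold change of 1.08.

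Ribonucleases of the T2 family, secreted enzymes that degrade RNA in the cell wall space and the vacuole, rose together. LOC4347708 measured 494, 496 and 469 in R6C and 4511, 2242 and 2134 in R6N (5.73-fold, log2 fold change 2.52 ± 0.28, adjusted p = 2.36e-06 by limma). LOC4347709, which lies next to it in the gene table, measured 352, 352 and 353 in R6C and 2318, 1741 and 1413 in R6N (5.07-fold, log2 fold change 2.34 ± 0.25, adjusted p = 1.25e-06 by limma). With Os.47388.1.S1_s_at (log2 fold change 2.17), 3 of the 4 probe sets of this term rose, beside 0.156% of all probe sets. Neighbouring copies of a family may share probe sequence, and whether each probe set reads its own gene was not tested.

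**Figure D2:**
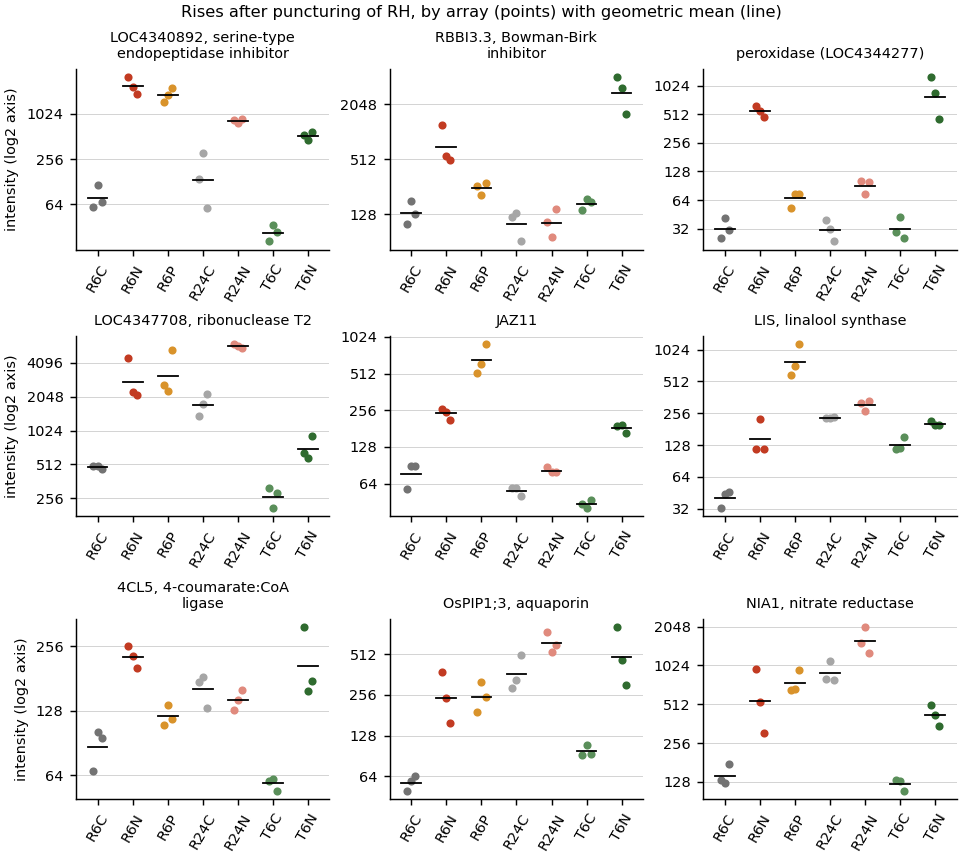
Intensity (log2 axis) of 9 wound-responsive probe sets in each of the 3 arrays (points) of 7 groups, with the geometric mean as a line. In every panel the 3 R6N arrays lie above the 3 R6C arrays, and the R6N mean of *LIS* and *JAZ11* lies below that of R6P, whereas that of *peroxidase* lies above it.

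Genes of jasmonate signalling moved in part. The 13 *JAZ* genes all had positive log2 fold changes, with a median of 0.58, the highest median of the 33 lists by function, beside -0.00388 over all probe sets. Of these genes 3 rose and 0 fell, where 0.156% of all probe sets rose. *JAZ11* measured 57.9, 89.2 and 88.6 in R6C and 263, 250 and 214 in R6N (3.13-fold, log2 fold change 1.65 ± 0.29, adjusted p = 0.00282 by limma). *JAZ8* measured 332, 431 and 450 in R6C and 883, 932 and 865 in R6N (2.23-fold, log2 fold change 1.16 ± 0.18, adjusted p = 0.000399 by limma). *JAZ9* measured 16.6, 25.8 and 23.8 in R6C and 55.1, 39.9 and 42.2 in R6N (2.08-fold, log2 fold change 1.06 ± 0.22, adjusted p = 0.0133 by limma). The groups did not overlap in any of the 3, but *JAZ9* started from signals below 40 and its call was lost without R6C replicate 1 (log2 fold change 0.87, adjusted p = 0.153) or R6N replicate 1 (0.92, adjusted p = 0.179).

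*JAZ10* stood at the threshold, with means of 332 and 663 and a log2 fold change of 1.00 that fell just short of 2-fold (adjusted p = 0.00066 by limma). It passed without R6C replicate 2, R6C replicate 3 or R6N replicate 2, with log2 fold changes of 1.01 to 1.08, and after quantile normalization (1.03). *JAZ12* reached 0.98 with an adjusted p of 0.0678 by limma, *JAZ5* 0.75 and *JAZ13* 0.58, none of which passed. *JAZ9*, *JAZ11* and *JAZ10* carry consecutive locus numbers, and *JAZ9* and *JAZ11* are neighbours in the gene table. The remaining 6 genes, *JAZ1*, *JAZ2*, *JAZ3*, *JAZ4*, *JAZ6* and *JAZ7*, lay between 0.09 and 0.26.

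**Figure D3:**
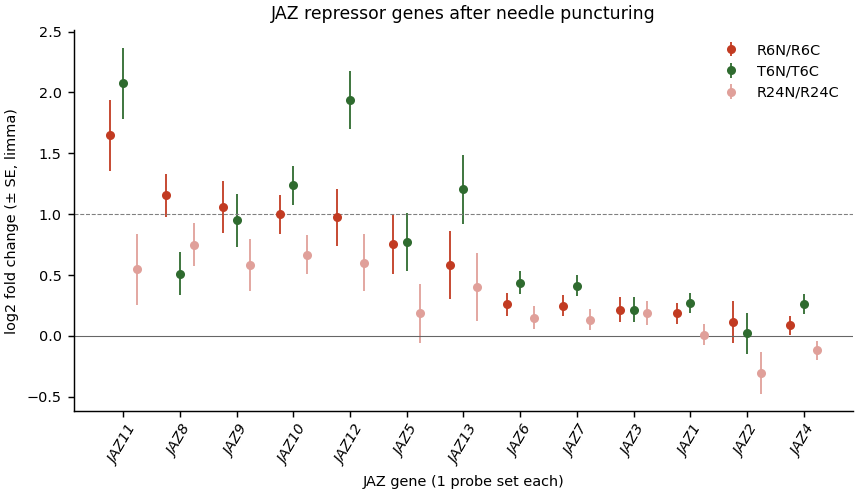
Log2 fold change (points, ± SE from limma) of the 13 *JAZ* genes after puncturing in RH at 6 h (R6N/R6C), TN1 at 6 h (T6N/T6C) and RH at 24 h (R24N/R24C), with a dashed line at 2-fold. In R6N/R6C the genes run from *JAZ11* at 1.65 to *JAZ4* at 0.09, and all 13 lie above 0.

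None of the 19 jasmonate synthesis genes was differential at 6 h, and their median log2 fold change was 0.05. The lipoxygenase genes of this list had log2 fold changes of -0.40 (*CM-LOX1*), 0.22 (*CM-LOX2*), 0.24 (*LOX5*), 0.22 (*LOX3*), 0.05 (*LOX2*) and -0.13 (*LOX1.1*). They were matched by name, and which of them feed jasmonate synthesis was not tested. The allene oxide synthase genes annotated *AOS* had -0.22 and 0.30, the *aoc* gene of allene oxide cyclase 0.35, and the reductase genes *OPR1* and *OPR7* 0.60 and between -0.06 and 0.19. Adjusted p ranged from 0.093 to 1 for these genes by limma. The salicylate list (17 genes, median -0.01) and the ethylene list (11 genes, median -0.12) also held 0 differential genes. In the latter, *ACO1*, which makes ethylene, had a log2 fold change of -0.49 and the 2 genes annotated *EIL1*, a transcription factor of ethylene signalling, -0.65 (LOC4332697) and 0.11 (LOC107276358, the brighter, with an R6C mean of 3987).

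Phenylpropanoid and terpenoid enzymes each gave 1 or 2 rises. *4CL5*, a 4-coumarate:CoA ligase that feeds lignin and phenolic synthesis, measured 66.7, 102 and 95.0 in R6C and 255, 231 and 203 in R6N (2.64-fold, log2 fold change 1.40 ± 0.20, adjusted p = 0.000127 by limma). The other 21 genes of that list did not pass, *PAL06* of phenylalanine ammonia-lyase with a log2 fold change of 0.51 among them. *LIS*, a synthase of the volatile linalool, measured 32.6, 44.5 and 46.3 in R6C and 118, 226 and 118 in R6N (3.60-fold, log2 fold change 1.85 ± 0.26, adjusted p = 8.21e-05 by limma). R6N replicate 2 was the highest here, unlike most rises. *DXPS*, the entry enzyme of the plastid pathway to terpenoids, rose 2.17-fold (59.8 to 79.9 in R6C against 126 to 166 in R6N, adjusted p = 0.00205 by limma). These were the 2 rises among 24 terpenoid genes, whose median was 0.08. LOC4325145, listed under terpenoid and gibberellin metabolic processes, had a log2 fold change of 1.12 (adjusted p = 0.0256 by limma). Its call was lost without any of R6C replicates 1 to 3 or R6N replicates 1 and 2 (adjusted p from 0.0659 to 0.389).

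Among chitinases, enzymes that cleave the chitin of fungal walls and insect cuticle, *CH16* rose 2.55-fold, from 113, 113 and 86.9 in R6C to 353, 273 and 191 in R6N (log2 fold change 1.35 ± 0.30, adjusted p = 0.0307 by limma). This call was weak, since it was lost in 5 of the 6 leave-one-out fits, with an adjusted p from 0.0807 without R6C replicate 1 to 0.339 without R6N replicate 1, and was kept only without R6N replicate 3. The other 12 genes of the list did not pass, although 11 of those log2 fold changes were positive and the list median was 0.32. LOC4325067, listed under chitinase activity, had a log2 fold change of 1.30 (adjusted p = 0.00834 by limma), which was lost without R6C replicate 1 or 2 or R6N replicate 1 or 2 (adjusted p from 0.0544 to 0.157).

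Aquaporins, the channels that carry water across the plasma membrane (PIP) and the vacuolar membrane (TIP), included 3 genes with a differential probe set. *OsPIP1;3* measured 49.97, 58.7 and 64.4 in R6C and 377, 242 and 159 in R6N (4.25-fold, log2 fold change 2.09 ± 0.28, adjusted p = 6.62e-05 by limma). *OsTIP1;2* measured 115, 101 and 114 in R6C and 294, 266 and 258 in R6N (2.47-fold, log2 fold change 1.30 ± 0.22, adjusted p = 0.000992 by limma). For *OsPIP2;1* the probe sets disagreed. One had means of 113 and 270 (2.36-fold, adjusted p = 0.0135 by limma), and its call was lost without R6C replicate 1 or 2 or R6N replicate 1 (adjusted p 0.0669 to 0.206), while a pair with R6C means of 7527 and 8665 had log2 fold changes of -0.07 each. The 25 aquaporin genes had a median of -0.00418.

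Other named rises were spread over different functions. *NIA1*, a nitrate reductase, measured 131, 125 and 177 in R6C and 958, 536 and 304 in R6N (3.78-fold, log2 fold change 1.92 ± 0.31, adjusted p = 0.000689 by limma), and was the 1 rise of 22 nitrogen assimilation genes. *EXPA1*, an expansin that loosens cell walls, rose 2.25-fold (56.1 to 97.0 against 143 to 165, adjusted p = 0.00416 by limma), the 1 rise of 61 cell wall genes, and was lost without R6C replicate 1 or 3 (adjusted p = 0.0538 and 0.0552). *APY3*, an apyrase that splits extracellular or Golgi nucleotides, rose 2.08-fold from 1651 to 2040 in R6C to between 3502 and 4392 in R6N (adjusted p = 0.000404 by limma). Without R6C replicate 3 or R6N replicate 2 it stood at log2 fold changes of 0.98 and 0.96, below the 2-fold minimum. *OsRAA1*, a gene first described in root development, went from 14.2 to 19.9 in R6C to between 34.2 and 41.8 in R6N (2.21-fold, adjusted p = 0.0323 by limma). All these signals were near or below the array medians, and its call was lost without any 1 of the 6 arrays (adjusted p from 0.0538 to 0.253).

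Across the 33 lists of genes by function, 13 of 794 genes were differential with 1 probe set per gene, all of them higher, which is 1.64% of these genes beside 0.156% of all probe sets. These shares have unlike bases, since 34663 of all probe sets have no gene. Of the 3193 probe sets with a name beyond a locus number, 16 were differential. Only genes with a name beyond a locus number could enter a list, so a list may hold a small part of its family. There were 6 WRKY, 8 NAC, 10 MYB and 13 ERF and DREB genes, for example. In 24 lists no gene passed. The lists for WRKY, NAC, MYB and ERF factors, MAP kinases, calcium signalling, auxin, gibberellin, cytokinin response regulators, abscisic acid and dehydration, heat shock, redox enzymes, photosynthesis, cytosolic ribosomal proteins and the cell cycle all held 0 differential genes, with medians between -0.04 and 0.26. *OsSWEET15*, a sugar exporter gene, had a log2 fold change of 1.30 with an adjusted p of 0.0519 by limma. *CIN1*, a cell wall invertase gene, had 0.68 with an adjusted p of 0.000213, below the fold minimum. *OsWRKY24* and *OsWRKY71*, transcription factor genes, had -0.91 and 0.71 with adjusted p of 0.0732 and 0.557. *OsSWEET15*, *CIN1*, *EIL1* and both WRKY genes were chosen after their values were seen.

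The 12 falls were smaller and carried no gene names. The largest was LOC4325228, with 177, 282 and 422 in R6C and 81.8, 76.0 and 117 in R6N (log2 fold change -1.62 ± 0.24, adjusted p = 0.000204 by limma). Os.12614.1.A1_at measured 432, 516 and 647 in R6C and 168, 179 and 182 in R6N (log2 fold change -1.57 ± 0.22, adjusted p = 0.000114 by limma). LOC107275306, listed under cysteine-type endopeptidase activity, measured 95.3, 129 and 192 in R6C and 64.3, 40.5 and 36.1 in R6N (log2 fold change -1.55 ± 0.30, adjusted p = 0.00727 by limma). The groups did not overlap, but R6C replicate 3 was the highest untreated array in all 12 falls. The share of all probe sets in which it was the highest was not computed. LOC107275306 no longer passed without R6C replicate 3 (adjusted p = 0.114) or without R6N replicate 2 or 3 (adjusted p = 0.0669 and 0.0619). Only 4 of the 12 falls passed without any 1 of the 6 arrays, against 57 of the 89 rises.

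The untreated arrays also differed in these 12. The R6C mean was above the T6C mean in 12 of 12 and above the R24C mean in 11 of 12, by more than 2-fold in 6 and 10 of them. The 12 were picked for R6C arrays above R6N, which favours such counts, and the shares of all probe sets were not computed. On the log2 scale and averaged over the 12, the difference from R6C was -1.63 in untreated RH at 24 h, -1.27 in untreated TN1 at 6 h and -1.33 in punctured RH at 6 h. For Os.12614.1.A1_at, for example, the means were 531 in R6C, 176 in R6N, 103 in R24C and 97.8 in T6C. The part of the higher R6C level in these falls was not tested.

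**Figure D4:**
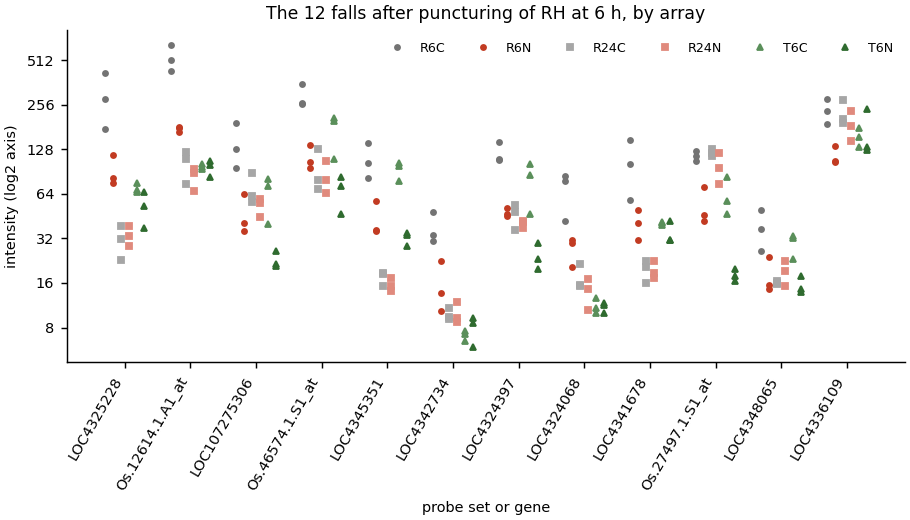
Intensity (log2 axis) of the 12 probe sets that fell in R6N/R6C, in each of the 3 arrays of R6C and R6N (circles), R24C and R24N (squares) and T6C and T6N (triangles). The R6C arrays lie above the R6N arrays in each, and for 9 of the 12 the R24C mean lies below the R6N mean.

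Within the rises, variation among the punctured pots followed a pattern. R6N replicate 1 was the highest punctured array in 72 of the 89 rises and R6N replicate 3 the lowest in 74. The shares of all probe sets with these orders were not computed. In 21 rises the highest and lowest R6N arrays differed by more than 2-fold. Averaged over the 89, the 3 arrays stood 2.03, 1.72 and 1.37 above the R6C mean on the log2 scale. Without R6N replicate 1 the number of differential probe sets was 67, 60 of them higher, and without R6N replicate 3 it was 129, 109 of them higher. The falls numbered 4 without R6C replicate 3 or R6N replicate 2, 7 without R6N replicate 1, and 20 without R6N replicate 3. In all, 61 of the 101 probe sets passed without any 1 of the 6 arrays. The probe sets stem from 95 design clusters, since 5 clusters gave 2 or more, and 35 of the rises began from an R6C mean below the highest array median of 39.8.

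The same puncturing of TN1, measured on other arrays, gave 239 differential probe sets (0.418%), 220 higher (0.385%) and 19 lower (0.0332%). Of the 89 rises of RH, 71 also rose in TN1, which is 79.8% of the RH rises and 32.3% of the TN1 rises, and 88 had a positive log2 fold change there. Over the 89 the median log2 fold change was 1.51 in RH and 1.62 in TN1. The fit pools the spread of all groups, but the 4 groups share no array. Of the 12 falls, 5 also fell in TN1, 41.7% of the RH falls and 26.3% of the TN1 falls, and 6 of the 12 were within 0.5 of 0 in TN1. Of all probe sets, 8 (0.014%) passed the test of the difference itself, 7 with the smaller log2 change in RH (0.0122%) and 1 with the larger (0.00175%). This count ran from 3 to 13 when 1 of the 12 arrays was left out, with 3 without R6C replicate 2, R6C replicate 3 or T6N replicate 1, 4 without T6C replicate 3, 5 without T6C replicate 1 or 2, and 13 without R6N replicate 3.

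The 1 stronger response of RH was OsAffx.25825.1.S1_at, which the annotation ties to no gene. It measured 14.6, 19.3 and 15.1 in R6C and 81.3, 127 and 82.9 in R6N, against means of 12.6 and 15.0 in T6C and T6N. Both TN1 means may be background, and whether this probe set reads a transcript in TN1 at all was not tested. The log2 fold changes were 2.55 in RH and 0.24 in TN1, a difference of 2.31 (interaction adjusted p = 0.0315 by limma). That call was fragile, since it was kept only without R6N replicate 1 or 3 and lost without any of the other 10 arrays (adjusted p from 0.0533 to 0.219). LOC4332568, listed under defense response, rose in both varieties but less in RH, from 388, 525 and 499 to 1939, 1696 and 1492 (log2 fold change 1.86) against 3.35 in TN1, a difference of -1.49 (interaction adjusted p = 0.0122 by limma), which was lost without R6C replicate 2 or 3, T6C replicate 1 or 3 or T6N replicate 1 (adjusted p from 0.0548 to 0.0776). The punctured means were similar, 1709 in R6N and 1850 in T6N, and the untreated means were 471 in R6C and 179 in T6C. These were the 2 of the 101 probe sets that passed this interaction.

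Fewer probe sets were differential in RH at 24 h than at 6 h. R24N/R24C held 12 differential probe sets (0.021%), all higher, and 7 of them were among the 89 rises at 6 h, which is 7.87% of the 6 h list and 58.3% of the 24 h list. The 89 had a median log2 fold change of 0.39 at 24 h and 1.51 at 6 h, and 51 lay below 0.5 at 24 h. Since the list was picked by size at 6 h, smaller values at 24 h are to be expected from that choice alone. All 3 ribonuclease T2 probe sets were among the 7, with log2 fold changes of 1.73 (LOC4347708), 1.94 (LOC4347709) and 1.89 (Os.47388.1.S1_s_at), as were the inhibitor LOC4352127 (1.63), LOC4332568 (1.20), LOC4343826 (1.41) and Os.51848.1.S1_x_at (1.35). The call of LOC4352127 was lost without any 1 of the 6 arrays at 24 h (adjusted p from 0.0627 to 0.158), that of LOC4343826 without R24C replicate 1 or 3 or R24N replicate 3 (0.0632 to 0.0904), and that of LOC4347708 without R24C replicate 1 (0.0792). The leading inhibitor LOC4340892 had 2.61 at 24 h and did not pass (adjusted p = 0.0962 by limma). The number of differential probe sets at 24 h hung on single arrays, from 6 without R24C replicate 3, 7 without R24N replicate 3 and 8 without R24C replicate 1 to 35 without R24N replicate 1.

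The change of response between the times was itself past the test for 17 probe sets (0.0297%), with a lower value at 24 h in 13 (0.0227%) and a higher one in 4 (0.00699%), and 13 of them were among the 101. That count too moved with single arrays, with 4 without R24C replicate 2, 5 without R6N or R24N replicate 2, 6 without R6C or R24C replicate 1, 10 without R6C replicate 3, 11 without R6N replicate 1 and 54 without R24N replicate 1. The *peroxidase* gene had a log2 fold change of 4.10 at 6 h and 1.57 at 24 h (difference -2.54, adjusted p = 0.0334 by limma). LOC4337232, the other peroxidase with a low untreated signal, went from 2.29 to -0.15 (difference -2.44, adjusted p = 0.000127), and *4CL5* from 1.40 to -0.16 (difference -1.57, adjusted p = 0.0251). The differences of LOC4337232 and LOC4331443 passed without any 1 of the 12 arrays. That of *peroxidase* was lost without any of 8 arrays (R6C replicates 1 and 3, R6N replicates 1 and 2, R24C replicates 1 and 2, R24N replicates 2 and 3, adjusted p from 0.0725 to 0.168). That of *4CL5* was lost without R6C replicate 1, R6N replicate 1 or 2, R24C replicate 1 or 2 or R24N replicate 2 (0.0958 to 0.127). LOC4331443 went from 3.19 to 0.57 (difference -2.62, adjusted p = 5.88e-06), with an R24C mean of 107 beside 39.5 in R6C. The untreated level itself was more than 2-fold higher at 24 h for 19 of the 89 rises, and the part of this higher start in their smaller rises was not tested. Rises were picked in part for low R6C arrays, which favours such a count, and the share of all probe sets was not computed.

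**Figure D5:**
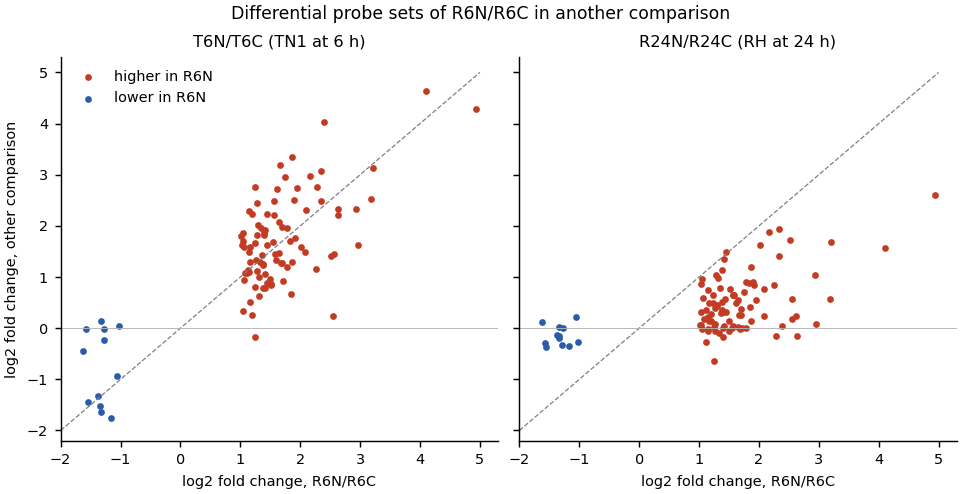
Log2 fold changes of the 101 differential probe sets in R6N/R6C (horizontal axis) against the same in T6N/T6C (left) and R24N/R24C (right), with a dashed line of equality. In TN1 the 89 rises (red) scatter around the line with a median of 1.62, whereas at 24 h nearly all lie below it, with a median of 0.39.

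BPH infestation of RH for 6 h was compared with puncturing directly, since R6P/R6C shares the R6C arrays with R6N/R6C and the values of both can only be set side by side. R6N/R6P held 114 differential probe sets (0.199%), 43 higher (0.0752%) and 71 lower (0.124%) after puncturing. R6P/R6C itself held 238 (0.416%), 181 higher (0.316%) and 57 lower (0.0997%). Of the 89 rises, 22 were higher in R6N than in R6P and 10 lower. The 89 were picked for their high R6N arrays, which this test uses again, so that choice itself favours higher values in R6N. *LIS* (log2 fold change 1.85 in R6N/R6C and 4.27 in R6P/R6C), *DXPS* (1.12 and 2.62), *JAZ11* (1.65 and 3.10), *JAZ9* (1.06 and 2.56) and *OsRAA1* (1.15 and 2.34) were lower in punctured than in infested seedlings, with R6N/R6P differences of -2.42, -1.50, -1.45, -1.50 and -1.20 and adjusted p from 7.31e-07 to 0.0154 by limma. Of these, *JAZ11* no longer passed without R6N or R6P replicate 3 (adjusted p up to 0.111), and *OsRAA1* passed only without R6P replicate 1 (up to 0.162 otherwise). The *peroxidase* gene (4.10 and 1.06), LOC4337232 (2.29 and 0.08), LOC4332568 (1.86 and -0.04), LOC4352127 (2.02 and 0.54) and *RBBI3.3* (2.39 and 0.90) were higher, with differences of 3.05, 2.20, 1.91, 1.48 and 1.49 and adjusted p from 5.75e-08 to 0.0483. Here *RBBI3.3* passed only without R6N replicate 3 (adjusted p up to 0.367 otherwise), and LOC4352127 was lost without R6N replicate 1 or R6P replicate 1 or 3 (0.0538 to 0.144). The probe set Os.6838.1.S1_at, listed under lipid transport, had opposite signs, 1.25 after puncturing and -1.41 under infestation (difference 2.66, adjusted p = 3.59e-08 by limma), although its R6N/R6C call was lost without R6N replicate 1 (adjusted p = 0.084). For LOC4340892 (4.94 and 4.54), LOC4325998 (3.21 and 3.33) and *OsPIP1;3* (2.09 and 2.11) the direct difference did not pass, at 0.40, -0.12 and -0.03.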

How the data were processed

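Total shoot RNA was hybridised to 36 single-colour Affymetrix Rice Genome Arrays, 3 for each of 12 groups. The deposited values were intensities on a linear scale, 1 per probe set, which the authors summarised and normalised across arrays (RMA and the affy package, versions not stated). Such normalisation assumes that most transcripts do not change. Detection calls were not used here.

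Intensities were taken to log2 and fitted over all 36 arrays in a single linear model of the 12 groups with limma 3.58.1 in R 4.3.3 (24 residual and 6.16 prior degrees of freedom). The threshold was an adjusted p under 0.05 and a 2-fold change, and for interactions an adjusted p under 0.05. Replicates were pots, so p-values measure the spread between these pots, and precision is bounded by 3 arrays a group. The fit was tested on simulated data with known changes, and it missed part of the 2-fold ones. Those changes had the size of the 2-fold minimum itself, so part of them would be missed whatever the precision. A gene that did not pass may still have changed by about 2-fold.

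The platform annotation gave 22436 probe sets 1 gene, 95 several and 34663 none, and 3193 had a name beyond a locus number. Names and neighbours came from the RefSeq gene table (assembly ASM3414082v1), and no coordinates are given. Genes of each list were matched by symbol or product name, with the brightest probe set standing for a gene.

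Genes were named by rule as the 20 largest named rises and all named falls without overlap, the 5 largest rises, up to 4 differential genes per list, the jasmonate, salicylate and ethylene pathway genes the study discusses, and the 5 largest in each direction of each interaction. The comparison, lists and rule were chosen with earlier results of these data known. Alternatives were the thresholds, the groups in the fit, a replicate block, 2 normalisations, a filter on dim probe sets, robust variances, array weights, 16 added before log2, leaving out each array, all probe sets of a gene, and the one-way ANOVA that the methods name.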

Additional observations from a re-analysis of the deposited data

Results flagged for a closer look

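The response to puncturing at 6 h differed between RH and TN1 for 8 probe sets, by limma's test of the RH response minus the TN1 response on the log2 scale. The difference was -3.49 for *pinA*, -3.36 for Os.48206.1.S1_at, -1.85 for Os.9169.1.S1_x_at, -1.74 for OsAffx.17202.1.S1_at, -1.54 for LOC4336228, -1.49 for LOC4332568, -0.87 for LOC4331894 and 2.31 for OsAffx.25825.1.S1_at. Those of *pinA*, Os.9169.1.S1_x_at and OsAffx.17202.1.S1_at passed without any 1 of the 12 arrays. Os.48206.1.S1_at, Os.9169.1.S1_x_at and OsAffx.17202.1.S1_at read below 40 in R6C and R6N, so their RH values may be background. OsAffx.25825.1.S1_at read below 40 in T6C and T6N, so its TN1 values may be background. LOC4331894 had R6C and R6N means of 949 and 1094 against 114 and 238 in T6C and T6N, so its varieties differed more in level than in response. Its call was lost without R6C replicate 2 or 3, T6C replicate 2 or T6N replicate 1 (adjusted p from 0.0552 to 0.07), and that of LOC4336228 without 8 of the 12 arrays (0.0505 to 0.173).

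The response of RH changed between 6 h and 24 h for 17 probe sets, by the same test of the 24 h response minus the 6 h response. Among genes and probe sets that rose at 6 h, the difference was -2.87 for LOC9267997, -2.78 for LOC9271072, -2.62 for LOC4331443, -2.54 for *peroxidase*, -2.44 for LOC4337232, -2.38 for OsAffx.25825.1.S1_at, -1.88 for Os.6838.1.S1_at, -1.72 for LOC4330542, -1.70 for LOC4325993, -1.57 for *4CL5*, -1.56 for Os.15281.1.S1_x_at and -1.53 for OsAffx.14027.1.S1_at. The fall LOC4325228 gave 1.75. The others were not differential at 6 h, with -0.77 for *HAK9* and 0.93 for *NRAMP4*, genes of potassium and metal transporter families, 0.96 for OsAffx.9765.1.S1_x_at and 1.05 for OsAffx.26393.1.S1_at. Both tests use the R6N and R6C arrays, so their results are not independent of each other or of R6N/R6C. The differences of LOC9271072, LOC4331443, LOC4337232 and LOC4325993 passed without any 1 of the 12 arrays, and the other 13 were lost without at least 1 array, from 1 array for *NRAMP4* (R24C replicate 2, adjusted p = 0.0568) to 11 for *HAK9*.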

How the results depend on the processing

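The 101 differential probe sets of R6N/R6C became 204 with no minimum fold change and 0 under the one-way ANOVA after Benjamini-Hochberg adjustment (120 unadjusted), and ranged from 67 to 129 when 1 array was left out. All other settings gave 69 to 126. With no minimum fold change T6N/T6C gave 993 probe sets, R6P/R6C 1751 and R6N/R6P 401, and leaving out 1 array gave 169 to 270, 185 to 290 and 85 to 142. R24N/R24C gave 7 at an adjusted p under 0.01 and 31 with array weights (leave-one-out 6 to 35). The variety interaction gave 3 at an adjusted p under 0.01, 4 without dim probe sets and 34 with array weights (leave-one-out 3 to 13), and the time interaction 5, 9 and 175 (4 to 54). The cause of these shifts was not tested, beyond fewer arrays or probe sets entering some fits. Of the 47 probe sets named by rule none reversed, and the 24 that were differential kept their call in 366 of 424 repeats. The lists held 13 differential genes, or 14 with all probe sets. Same-numbered pots did not deviate together (r = -0.16, 0.017 and -0.040), so the numbers were not taken as pairs. The replicate block again gave 101 probe sets, 7 for the variety and 18 for the time interaction. Rises from signals near the array medians may understate the change, and most probe sets had no gene name.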
